A study of Homo sapiens with 5 samples.

Results

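The SWI/SNF chromatin remodelling complex is built from interchangeable protein subunits, and the mRNAs of 10 of them, ARID1A, ARID1B, ARID2, SMARCA2, SMARCA4, SMARCB1, SMARCC1, SMARCC2, SMARCD1 and SMARCE1, were followed through an RNA immunoprecipitation sequencing (RIPseq) experiment on CBFB and hnRNPK. They were chosen by name, and each symbol matched 1 Ensembl gene ID among the 56632 genes of the deposited tables. All 10 were among the 11764 genes left by a filter on low values, which asked for an average FPKM over the 5 libraries of 1 or higher. FPKM is a fragment count divided by effective transcript length and by the size of the library, so levels of different genes can be compared.

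In RIPseq an antibody captures a protein from lysed cells, and the RNA bound along with it is sequenced beside an input that skipped the capture. All libraries came from untreated MCF10A, a non-tumorigenic human line of mammary epithelium grown in medium with serum, insulin, EGF, hydrocortisone and cholera toxin. MCF10A cells expressing FLAG-tagged CBFB gave 1 input and 1 RIP with FLAG antibody, and parental MCF10A cells gave 1 input and 2 RIP repeats with hnRNPK antibody. The labels state neither the end of CBFB that carried the tag, nor whether the cells kept their own CBFB, nor whether the line was 1 clone, and no mock pulldown was analysed here. For its protein pulldowns the paper describes stable lines with either end tagged, made in CBFB knockout MCF10A cells. It does not say whether such a line was used for RIPseq.

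SWI/SNF complexes use the energy of ATP to slide or evict nucleosomes and so open promoters and enhancers. Every complex holds SMARCA4 (BRG1) or SMARCA2 (BRM) as its ATPase, while ARID1A and ARID1B are alternatives in the canonical form, ARID2 belongs to the PBAF form, and BICRA or BICRAL marks the non-canonical form. The genes are often mutated in human tumours, ARID1A among them in breast cancer. CBFB pairs with the RUNX transcription factors without touching DNA itself, and hnRNPK contacts C-rich RNA through its KH domains. The measurements concern the mRNAs that encode the subunits, not the assembled complex.

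Given this preference of hnRNPK, the 30-nucleotide stretch richest in C was located in a principal protein-coding transcript of each gene. The stretches of the 3 mRNAs that were enriched in the hnRNPK RIP come first below, followed by those of 3 that were not enriched, shown as examples. Over the whole transcript, these examples were the richest in C of the mRNAs not enriched. They held 28.8% to 30.5% C, beside 21.0% to 23.1% in the rest of those not enriched and 28.5% to 30.9% in the enriched. Each stretch is written 5′ to 3′ on the mRNA strand with T for U, and capitals mark runs of 3 or more C.
SMARCD1, 3′ UTR, exon 13: CCCCtgcttCCCCaCCCCCtcctcaggctc
ARID1A, coding, exon 1: actCCCCagCCCaccgccaCCCCCaCCCtc
SMARCC2, coding, exon 28: caCCCCCCtgcctccagaCCCCacagCCCC
SMARCA4, coding, exon 6: ccgCCCttCCCCCgcgCCCCCtgccgtCCC
ARID1B, coding, exon 1: CCCCCgccgcgccgCCCCaccagcagcacc
SMARCB1, 3′ UTR, exon 9: CCCCCCaCCCCaCCCtCCCtaCCCCtCCCC

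These stretches lie on GRCh38, in GENCODE 29, at chr12:50100311-50100340 (plus strand) for SMARCD1, chr1:26697259-26697288 (plus) for ARID1A and chr12:56163729-56163758 (minus) for SMARCC2. Those of the others lie at chr19:10987733-10987762 for SMARCA4, chr6:156778153-156778182 for ARID1B and chr22:23834366-23834395 for SMARCB1, all on the plus strand. The stretch of SMARCB1 held 24 C, that of SMARCD1 19, and those of ARID1A and SMARCA4 21 each. The stretches not printed, of ARID2, SMARCA2, SMARCC1 and SMARCE1, held 20, 20, 19 and 21 C. Every mRNA that was not enriched thus had a stretch with at least the 19 C of SMARCD1. The stretch of ARID2, however, was a repeat of GCC and held no run of 3 or more C. Among 10507 analysed genes with such a transcript, 0.638% had a stretch with at least 24 C, 13.4% one with at least 21, and 39.3% one with at least 19. The most C-rich stretch of the 10 mRNAs was therefore in one that was not enriched, and the stretch of the most enriched mRNA, SMARCD1, was of a common kind.

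Expected counts, the read numbers that RSEM estimates per gene, summed to 69786576 to 106855647 per library. The 37 mitochondrial genes took 4.27% and 11.2% of the counts of the inputs. Their share was 62.2% after FLAG-CBFB RIP and reached 84.5% and 86.6% after hnRNPK RIP. Most other genes had a lower FPKM in a RIP than in its input, and each RIP was scaled so that the median analysed gene had a ratio of 1, by factors of 3.50 (FLAG-CBFB) and of 16.5 and 18.4 (hnRNPK repeats). Enrichment is the log2 of the scaled FPKM plus 1 in the RIP minus the log2 of FPKM plus 1 in its own input, and an mRNA was called enriched above 2, that is 4-fold. The hnRNPK values are the mean ± SD of 2 repeats against a single parental input, so that the SD holds no error of the input. FLAG-CBFB has 1 library per arm, no test was possible, and its error is the 95% counting error alone. The inputs carried the markers listed for a basal breast epithelial line, all 7 at an FPKM of 1.81 or more. KRT5 stood at 1974 and 1640 in the FLAG-CBFB and parental inputs, but KRT14, the lowest, only at 6.78 and 1.81. ESR1 (0.71 and 0.67), PGR (0) and PTPRC (at most 0.01) were near 0. In bulk libraries, fewer cells with an mRNA and less of it per cell cannot be told apart.

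A small set of SWI/SNF mRNAs was enriched in the RIPs. SMARCD1 was enriched in both, 8.27-fold with FLAG-CBFB and 56.1-fold with hnRNPK. ARID1A and SMARCC2 were enriched with hnRNPK only by the 4-fold rule, 28.5-fold and 13.4-fold, and reached 3.54-fold and 1.21-fold with FLAG-CBFB, but the difference between the RIPs was not tested. The other 7, among them both ATPases, SMARCA4 and SMARCA2, and the core subunits SMARCB1, SMARCC1 and SMARCE1, lay between -0.82 and 0.07 with FLAG-CBFB and between -0.94 and 0.92 with hnRNPK on the log2 scale. In numbers, 1 of 10 was enriched with FLAG-CBFB where 5.47% of all analysed genes were, 3 of 10 with hnRNPK where 14.6% were, and 1 of 10 with both where 5.15% were. With 10 mRNAs these counts do not set the subunits as a group apart from other genes, and the results concern single subunits. The median of the 10 was -0.24 with FLAG-CBFB and 0.70 with hnRNPK, beside 0.00029 and -0.012 over all analysed genes.

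**Figure D1:**
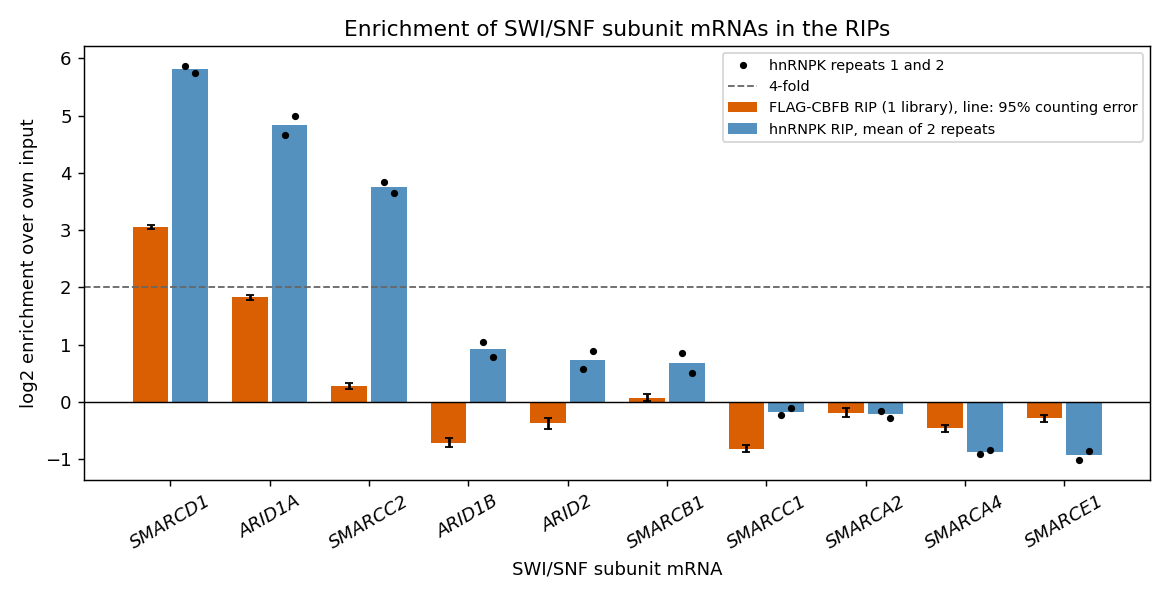
Log2 enrichment over the own input (vertical axis) of the 10 SWI/SNF subunit mRNAs (horizontal axis) in the FLAG-CBFB RIP (orange bars, 1 library, lines give the 95% counting error) and in the hnRNPK RIP (blue bars, mean of 2 repeats, black points give the repeats). The dashed line is 4-fold; SMARCD1 passes it in both RIPs, ARID1A and SMARCC2 only in the hnRNPK RIP.

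The edgeR quasi-likelihood test of the hnRNPK RIPs against the parental input, on expected counts and with Benjamini-Hochberg adjustment over 16639 genes, called the same 3 mRNAs higher and 1 of the 10, SMARCA4, lower, and did not call the other 6. Over all genes tested, 21.9% were called higher and 15.8% lower, and the median log2 fold change was -0.12. The spread in this test comes from the 2 RIPs alone. An exact permutation of 2 libraries against 1 cannot give a p below 1 in 3. With the inputs of both cell lines as 2 control libraries, the same 3 were called higher, and SMARCA4 and SMARCA2 lower. In that fit 19.6% of all genes tested were called higher and 12.2% lower.

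SMARCD1 (ENSG00000066117, chr12:50084972-50100712 on GRCh38) encodes BAF60A, one of several related subunits that link the complex to transcription factors. Its deposited FPKM was 39.1 in the FLAG-CBFB input, 94.5 in the FLAG-CBFB RIP, 32.7 in the parental input, and 120.0 and 98.7 for hnRNPK repeats 1 and 2. All 3 RIP values were above both inputs before any scaling, although mitochondrial RNA filled most of the RIP libraries. The expected counts behind these values were 8203, 17243, 5141, 23762 and 18467. The enrichment was 3.05 ± 0.04 (95% counting error) with FLAG-CBFB and 5.81 ± 0.09 (SD, n = 2) with hnRNPK, and the edgeR log2 fold change was 5.34 (SE 0.43, adjusted p = 1.32e-32, at most 2.64e-05 under any alternative). SMARCD1 ranked 306th with FLAG-CBFB and 122nd with hnRNPK among the 11764 analysed genes.

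ARID1A (ENSG00000117713, chr1:26693236-26782110), a very large DNA-binding subunit of canonical BAF and a frequent target of inactivating mutations in cancer, showed FPKM values of 16.6 in the FLAG-CBFB input, 17.5 in the FLAG-CBFB RIP, 15.9 in the parental input, and 26.0 and 29.4 for hnRNPK repeats 1 and 2. Both hnRNPK values exceeded both inputs without scaling, whereas the FLAG-CBFB RIP was level with its input. The enrichment was 4.83 ± 0.24 (SD, n = 2) with hnRNPK, with an edgeR log2 fold change of 4.56 (SE 0.42, adjusted p = 1.04e-25, at most 3.05e-05 under any alternative). With FLAG-CBFB it was 1.83 ± 0.04 (95% counting error), under the 4-fold line, and it stayed under that line in all 9 alternative ways of computing it, which gave 0.07 to 1.92. By rank, ARID1A was 281st with hnRNPK and 720th with FLAG-CBFB.

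SMARCC2 (ENSG00000139613, chr12:56162983-56189567) encodes BAF170, a scaffold subunit around which the complex assembles. Its FPKM was 33.1 in the FLAG-CBFB input, 11.5 in the FLAG-CBFB RIP, 20.7 in the parental input, and 18.9 and 14.9 for hnRNPK repeats 1 and 2. Both hnRNPK values lay a little below the parental input while most mRNAs fell many-fold, so that enrichment rested on the scaling: it was 3.75 ± 0.13 (SD, n = 2) with scaling and -0.29 without. The edgeR log2 fold change was 3.63 (SE 0.41, adjusted p = 1.12e-17, at most 0.000108 under any alternative). With FLAG-CBFB, SMARCC2 stood at 0.28 ± 0.05 (95% counting error). A neighbour on the opposite strand, MYL6, overlaps 152 nucleotides (3.73%) of the SMARCC2 transcript, and whether reads were counted by strand is not given in the sources used here. MYL6 itself went from an FPKM of 813 (parental input) to 36.6 and 42.0 (hnRNPK repeats). The SMARCC2 counts were not whole numbers, since RSEM splits reads that match several genes, so its values are less certain. The part of this overlap in the result was not tested.

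**Figure D2:**
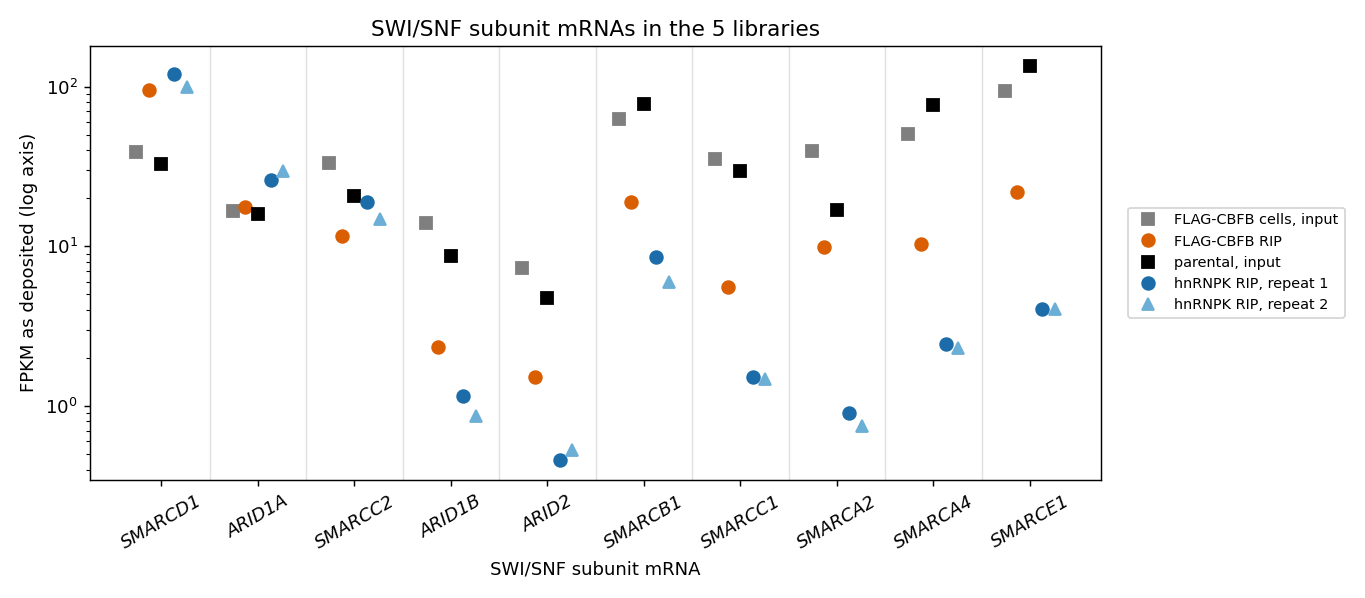
Deposited FPKM (vertical log axis) of the 10 SWI/SNF subunit mRNAs (horizontal axis, ordered by hnRNPK enrichment) in each of the 5 libraries, with squares for inputs and circles or triangles for RIPs. SMARCD1 rises from 39.1 to 94.5 with FLAG-CBFB and from 32.7 to 120.0 and 98.7 with hnRNPK, while SMARCE1 falls from 135 to 4.03 and 4.04 with hnRNPK.

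The paralogues of the ARID subunits behaved differently from ARID1A. ARID1B (ENSG00000049618, chr6:156776020-157210779), the alternative to ARID1A in canonical BAF, had an FPKM of 14.1 in the FLAG-CBFB input, 2.34 in the FLAG-CBFB RIP, 8.72 in the parental input, and 1.16 and 0.86 for hnRNPK repeats 1 and 2. Its enrichment was -0.71 ± 0.08 (95% counting error) with FLAG-CBFB and 0.92 ± 0.18 (SD, n = 2) with hnRNPK, which edgeR did not call (adjusted p = 0.132). ARID2 (ENSG00000189079, chr12:45729665-45908040), the ARID subunit of PBAF, had FPKM values of 7.27, 1.53, 4.77, 0.46 and 0.53 in the same order of libraries. Its enrichment was -0.38 ± 0.10 (95% counting error) and 0.73 ± 0.23 (SD, n = 2), again not called (adjusted p = 0.436). The signs of these small values depended on the setting. With hnRNPK, ARID1B and ARID2 stood at -2.28 and -1.95 without scaling and at -0.01 and -0.13 when libraries were scaled to an equal sum without mitochondrial genes, and ARID2 with FLAG-CBFB stood at 0.17 against the opposite input.

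Neither ATPase mRNA was enriched. SMARCA4 (ENSG00000127616, chr19:10960825-11079426) had an FPKM of 50.6 in the FLAG-CBFB input, 10.4 in the FLAG-CBFB RIP, 76.7 in the parental input, and 2.44 and 2.30 for hnRNPK repeats 1 and 2. Its enrichment was -0.47 ± 0.06 (95% counting error) with FLAG-CBFB and -0.88 ± 0.05 (SD, n = 2) with hnRNPK, and edgeR called it lower with a log2 fold change of -1.17 (SE 0.35, adjusted p = 0.00307, at most 0.0209 under any alternative). SMARCA2 (ENSG00000080503, chr9:1980290-2193624) had FPKM values of 39.8, 9.92, 16.9, 0.91 and 0.75. Its enrichment was -0.19 ± 0.08 (95% counting error) and -0.22 ± 0.08 (SD, n = 2), and edgeR did not call it (log2 fold change -0.78, adjusted p = 0.0777). SMARCA2 had the largest gap between the inputs of all 10, 1.22 higher on the log2 scale in FLAG-CBFB cells, and taking the FLAG-CBFB input for hnRNPK moved its edgeR log2 fold change to -1.72 and its adjusted p to 6.35e-06.

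None of the remaining core subunits was enriched with either protein. SMARCB1 (ENSG00000099956, chr22:23786931-23838008), the tumour suppressor lost in rhabdoid tumours, had FPKM values of 62.6 in the FLAG-CBFB input, 18.8 in the FLAG-CBFB RIP, 78.0 in the parental input, and 8.62 and 6.01 for hnRNPK repeats 1 and 2. This gave 0.07 ± 0.06 (95% counting error) and 0.68 ± 0.25 (SD, n = 2), the largest spread between repeats among the 10, and an edgeR adjusted p of 0.952. The sign with hnRNPK depended on the setting: -3.27 without scaling, -0.26 with TMM and 0.98 against the opposite input. SMARCC1 (ENSG00000173473, chr3:47585272-47782106), the scaffold paralogue of SMARCC2, had 35.0, 5.54, 29.5, 1.51 and 1.48, with enrichments of -0.82 ± 0.06 and -0.18 ± 0.09 and an edgeR adjusted p of 0.277. SMARCE1 (ENSG00000073584, chr17:40624962-40648864), an HMG-box DNA-binding subunit, was the most abundant of the 10 in both inputs. Its FPKM was 93.6 in the FLAG-CBFB input, 21.8 in the FLAG-CBFB RIP, 135 in the parental input, and 4.03 and 4.04 for hnRNPK repeats 1 and 2, with enrichments of -0.29 ± 0.05 and -0.94 ± 0.11 and an edgeR adjusted p of 0.139. A gene model listed as AC073508.2 shares 59.7% of the SMARCE1 transcript on the same strand, and its own FPKM was at most 0.72 in any library. The SMARCE1 counts were not whole numbers either, so its values share the uncertainty given for SMARCC2.

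The FPKM values above can also be set out as ratios of related subunits inside a library, which need no scaling but come from the same values and are no separate evidence. The mRNAs of SMARCD1 and SMARCD2 stood at a FPKM ratio of 0.425 and 0.440 in the inputs, 5.11 after FLAG-CBFB RIP, and 26.0 and 34.4 for hnRNPK repeats 1 and 2. SMARCD2 was thus the more abundant of the pair in both inputs and the scarcer in all 3 RIPs. The shift from input to RIP was 3.59 ± 0.06 (95% counting error) on the log2 scale with FLAG-CBFB and 6.09 ± 0.29 (SD, n = 2) with hnRNPK.

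For ARID1A over ARID1B the ratio was 1.18 and 1.82 in the inputs, 7.48 after FLAG-CBFB RIP, and 22.4 and 34.2 for hnRNPK repeats 1 and 2, a shift of 2.67 ± 0.09 (95% counting error) and 3.92 ± 0.43 (SD, n = 2). For SMARCC2 over SMARCC1 it was 0.946 and 0.703 in the inputs, 2.08 after FLAG-CBFB RIP, and 12.5 and 10.0 for hnRNPK repeats 1 and 2, a shift of 1.14 ± 0.08 and 3.99 ± 0.22. The ATPases moved little by comparison: SMARCA2 over SMARCA4 was 0.786 in the FLAG-CBFB input and 0.956 in its RIP, and 0.220 in the parental input and 0.373 and 0.326 for hnRNPK repeats 1 and 2. The inputs differed by 1.84 on the log2 scale for this pair, more than either RIP moved it (0.28 and 0.66). The transcript lengths that RSEM estimated, which enter FPKM, differed too. In the FLAG-CBFB and parental inputs they were 3456 and 2587 nucleotides for SMARCA4, and 2552 and 2948 for SMARCA2. The part of these lengths in the difference was not tested. These pairs were chosen with their values known.

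**Figure D3:**
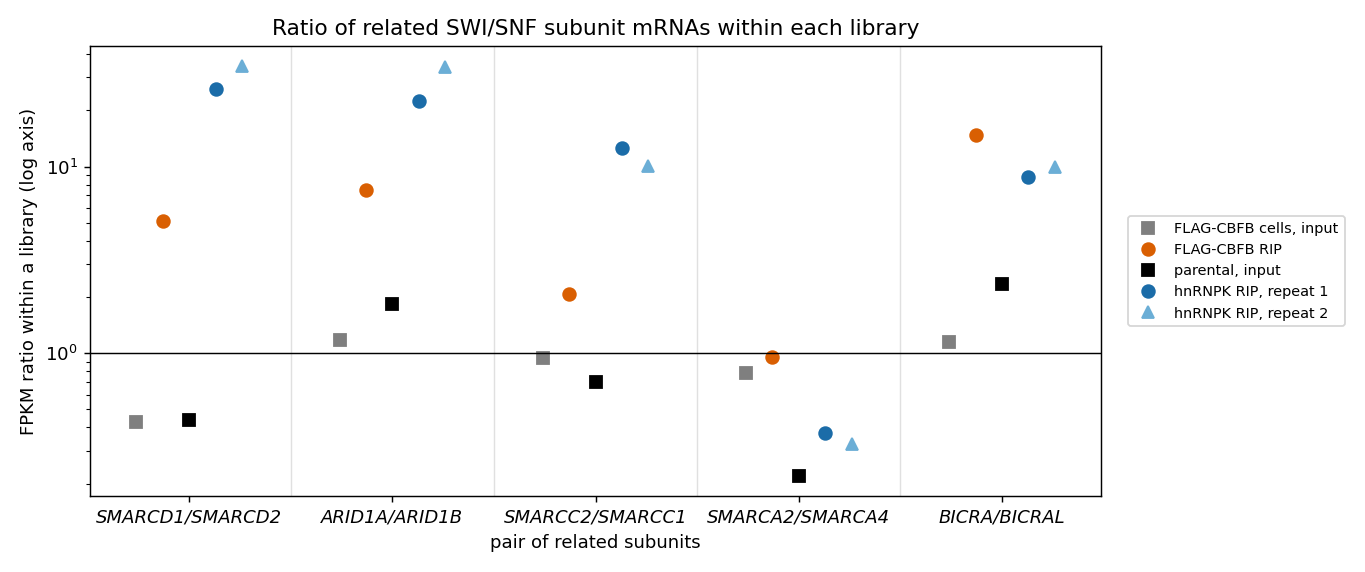
Ratio of the FPKM of related subunit mRNAs within each library (vertical log axis) for 5 pairs (horizontal axis), with squares for inputs and circles or triangles for RIPs; the line marks equal FPKM. SMARCD1 over SMARCD2 goes from 0.425 and 0.440 in the inputs to 5.11, 26.0 and 34.4 in the RIPs, while SMARCA2 over SMARCA4 stays below 1 in all 5 libraries.

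Some other subunits of SWI/SNF complexes were enriched too. Of 19 listed, 16 passed the filter, of which 1 was enriched with FLAG-CBFB and 5 with hnRNPK, beside 5.47% and 14.6% of all analysed genes. Of the same 16, edgeR called 6 higher and 3 lower, beside 21.9% and 15.8% of all genes tested. With 16 mRNAs, listed with earlier results known, none of these counts sets the list apart from other genes. BICRA (GLTSCR1), which defines the non-canonical complex, was enriched in both RIPs: its FPKM was 4.76 in the FLAG-CBFB input, 28.8 in the FLAG-CBFB RIP, 5.17 in the parental input, and 32.6 and 21.3 for hnRNPK repeats 1 and 2. Its enrichment of 4.14 ± 0.09 (95% counting error) and 6.22 ± 0.32 (SD, n = 2) placed it 132nd with FLAG-CBFB and 73rd with hnRNPK among the analysed genes, ahead of SMARCD1 in both rankings, though with hnRNPK the gap to SMARCD1 was close to the SD between repeats. Its paralogue BICRAL was enriched with hnRNPK only (3.97 ± 0.44, and 0.61 with FLAG-CBFB), and the ratio of BICRA to BICRAL went from 1.14 to 14.7 with FLAG-CBFB and from 2.34 to 8.77 and 9.91 with hnRNPK.

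The other 3 enriched with hnRNPK were BCL7A (3.06 ± 0.37), DPF2, a histone-reading PHD finger subunit (2.86 ± 0.15), and BCL7B (2.19 ± 0.40), and all of them were under the 4-fold line with FLAG-CBFB (0.18, 1.04 and 0.59). The lowest with hnRNPK were ACTL6A, an actin-related subunit (-0.84 and -1.16 in the repeats), and PBRM1, the PBAF subunit often lost in kidney cancer (-0.92 ± 0.62), both called lower by edgeR (adjusted p = 0.000211 and 0.00142).

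Among the ATPases of other remodelling complexes, 13 of 14 passed the filter, and 1 was enriched with FLAG-CBFB and 2 with hnRNPK, both counts near the 5.47% and 14.6% of all analysed genes. edgeR called 3 of the 13 higher and 4 lower, beside 21.9% and 15.8% of all genes tested. SRCAP, which deposits the histone variant H2A.Z, stood at 2.95 ± 0.03 (95% counting error) with FLAG-CBFB and 5.21 ± 0.08 (SD, n = 2) with hnRNPK. SMARCD1 stood higher in both, at 3.05 and 5.81, a difference that was not tested. CHD3, an ATPase of the NuRD complex, stood at 0.08 and 2.72 ± 0.29. The rest lay between -1.14 and 1.45 over both RIPs. RUNX1 mRNA, the transcript the study started from, stood at 2.56 and 4.47 ± 0.24, and GAPDH at 0.28 and -1.22 ± 0.02. In hnRNPK repeats 1 and 2, RUNX1 stood at 4.65 and 4.30, beside 4.66 and 5.00 for ARID1A, a difference that was not tested.

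**Figure D4:**
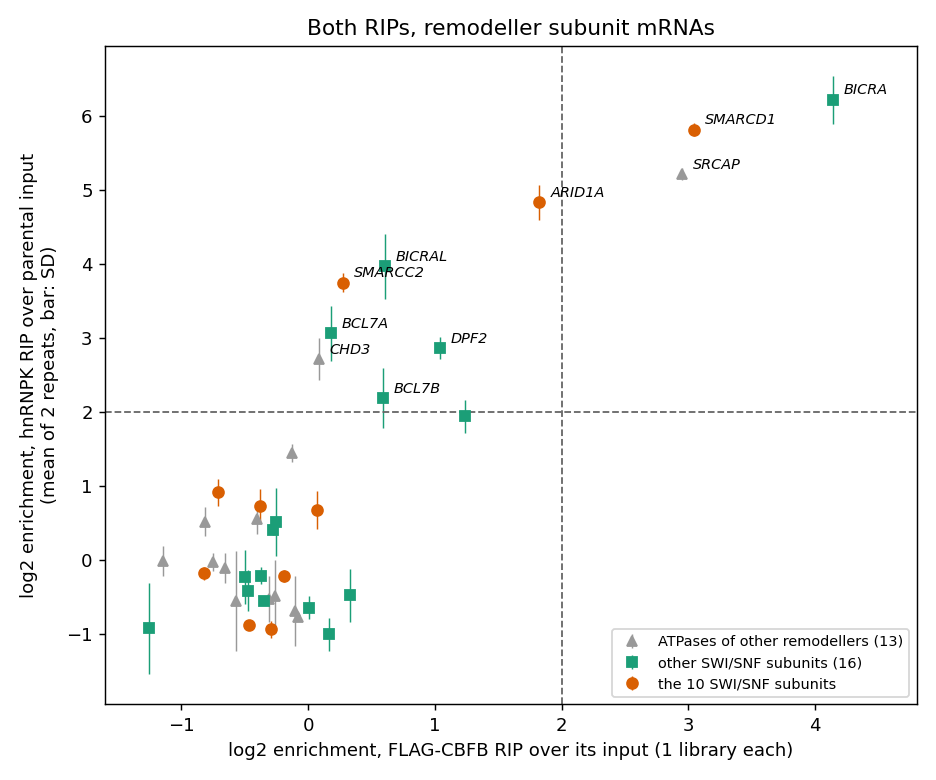
Log2 enrichment with FLAG-CBFB (horizontal axis, 1 library per arm) against that with hnRNPK (vertical axis, mean of 2 repeats, bars give the SD) for the 10 SWI/SNF subunits (orange), 16 other subunits (green) and 13 ATPases of other remodellers (grey), with dashed lines at 4-fold. BICRA, SMARCD1 and SRCAP pass both lines, and no mRNA passes the FLAG-CBFB line alone.

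Along the whole transcript, ARID1A held 29 runs of 5 or more C, 26 of them in the coding sequence, or 3.38 per kilobase. SMARCC2 held 12 (2.94 per kilobase) and SMARCD1 8 (2.19 per kilobase), 5 of them in its 3′ UTR. SMARCA4 held 15 (2.59 per kilobase) and ARID1B 18 (2.26 per kilobase), both denser than SMARCD1 and neither enriched. The other 5 held between 0.682 and 1.73 per kilobase. These counts describe 1 annotated transcript per gene, which may differ from the isoforms present in the libraries. RSEM estimated average lengths of 2090 to 2413 nucleotides for SMARCD1, whose annotated transcript has 3658. For SMARCA4 they were 2587 to 3456 beside 5791, and for ARID1B 6142 to 6683 beside 7962. For SMARCE1 they were 1395.5 to 2142 beside 6196, while for SMARCC1 they were close, 5679 to 6267 beside 6375.

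Runs of this kind, searched for as CCCCC on the mRNA strand with longer runs counted once, occur in 82.9% of the analysed genes' transcripts, at a median of 0.799 per kilobase. Over the 10 mRNAs, the density of runs and hnRNPK enrichment had a Spearman rho of 0.49 and a Pearson r of 0.63, and with FLAG-CBFB the values were 0.36 and 0.47. These 10 points share the libraries and the transcript models, so that the correlations are a description only. In the list of other subunits described above, the 5 enriched with hnRNPK held between 0.919 (BICRAL) and 8.19 (BICRA) runs per kilobase, and the 11 that were not enriched held between 0 (ACTL6A) and 4.02 (BCL7C). These ranges overlap. Among the analysed ATPases of other remodellers, those enriched with hnRNPK, SRCAP and CHD3, held 2.98 and 2.45 per kilobase. The ATPases that were not enriched held between 0 and 2.26, so here the ranges did not overlap. RUNX1, which was enriched, held 1.61 per kilobase, and GAPDH, which was not, held 3.73. A relation between runs and enrichment was not tested.

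**Figure D5:**
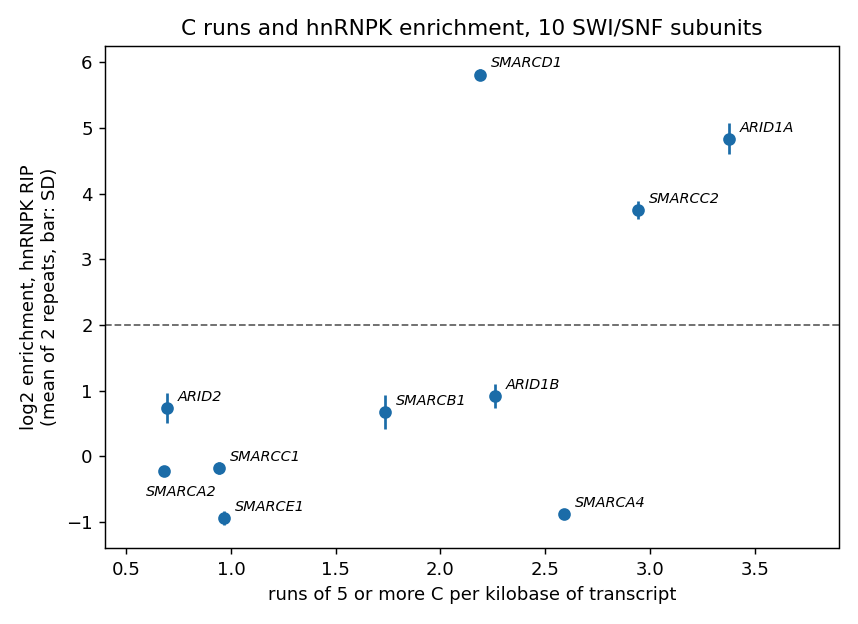
Runs of 5 or more C per kilobase of transcript (horizontal axis) against log2 enrichment with hnRNPK (vertical axis, mean of 2 repeats, bars give the SD) for the 10 SWI/SNF subunit mRNAs. The 3 mRNAs above the dashed 4-fold line have 2.19 to 3.38 runs per kilobase, and SMARCA4 (2.59) and ARID1B (2.26) lie in the same range below the line.

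The mean profile of the 10 mRNAs over the 5 libraries was closest to those of ARPC4, STXBP2 and EXTL2, at Euclidean distances of 0.0676, 0.0987 and 0.145 on the log2 scale. The members themselves lay at 0.697 (SMARCB1) to 4.38 (SMARCD1) from that mean, so the average stood for none of them closely.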

How the data were processed

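MCF10A libraries (1 input and 1 FLAG RIP of FLAG-CBFB cells, 1 parental input, 2 hnRNPK RIPs) were made with a TruSeq mRNA kit per the labels. Per the submitters' processing notes, the authors used Trimmomatic, STAR, RSEM and hg19 (versions not given in the sources used here). The deposited tables, 1 per library, held expected counts (estimated, not always whole) and FPKM, which the authors' RSEM run normalised to transcript length and library size. The deposited TPM values, made by the authors with RSEM from the same counts, were not used. Of 56632 genes, 50276 were named through a gene-name table and GENCODE 29, which, on GRCh38, also gave coordinates and transcripts. The study calls transcripts bound above 4-fold and plots mean adjusted FPKM + 1, which may name an adjustment to the mean or a mean of libraries, with no further detail in the sources used here. Scaling to the median ratio over 11764 genes before a pseudocount of 1 is a reading of it, and centring on the mean is an alternative. The scale understates changes of weak mRNAs. Members, lists, pairs and motif were chosen with earlier results of these data known.

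Expected counts were rounded and tested with edgeR 4.0.16 (glmQLFit, glmQLFTest, TMM, filterByExpr, R 4.3.3), called at an adjusted p under 0.05. DESeq2 1.42.0, other scalings, filters, inputs and pseudocounts were alternatives. The scripts were tested on simulated data. Repeats are samples of 1 label, and nothing says whether they came from separate cultures, so p-values measure the spread between these samples, which may be technical. No molecular identifiers were used, and counting errors cover counting only. The transcript for each gene was the longest protein-coding one of the best APPRIS rank among those in the tables. Named genes were all 10 members, the listed subunits and ATPases enriched in either RIP, and the 2 subunits lowest with hnRNPK. RUNX1, GAPDH and the 3 genes nearest the members' mean profile were named too. SMARCD2, BCL7C, KRT5, KRT14 and genes overlapping a member were added for the values beside which they stand. The markers were 7 epithelial and 4 of other cells, of which 3 were matched. Hand-written symbols in an extra column were not used.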

Additional observations from a re-analysis of the deposited data

Results flagged for a closer look

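With the median scaling, ARID1B and ARID2 lay on opposite sides of the median gene in the RIPs: all values with hnRNPK were above 0 (ARID1B 1.05 and 0.79, ARID2 0.57 and 0.89) and the FLAG-CBFB values were below it (-0.71 and -0.38). The mean hnRNPK enrichment exceeded the FLAG-CBFB enrichment by 1.63 for ARID1B and by 1.11 for ARID2 on the log2 scale. The signs are not stable. At an equal sum without mitochondrial genes the hnRNPK values were -0.01 and -0.13, without scaling they were -2.28 and -1.95, and against the opposite input ARID2 with FLAG-CBFB was 0.17 and its edgeR log2 fold change with hnRNPK -0.20. The difference was not tested, since FLAG-CBFB has 1 library per arm.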

How the results depend on the processing

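The number enriched with FLAG-CBFB (1) became 0 without scaling and 2 at a 2-fold threshold, and the number enriched with hnRNPK (3) became 0 without scaling. The share of all analysed genes moved as well. With FLAG-CBFB it went from 5.47% to 1.59% without scaling and to 10.6% at a 2-fold threshold. With hnRNPK it went from 14.6% to 0.757% without scaling. The median of the 10 with FLAG-CBFB (-0.24) was -0.46 with the log2 taken first and mean centring, -1.80 without scaling, -0.76 at an equal sum without mitochondrial genes, -0.50 with TMM, -0.42 with DESeq2 size factors and 0.06 against the opposite input. The median with hnRNPK (0.70) was 0.76 with a pseudocount of 0.1, -0.13 with the log2 first, -2.77 without scaling, -0.23 at an equal sum, -0.09 with TMM, 0.17 with DESeq2 size factors, 0.85 at an FPKM of at least 5, 0.80 without a filter, 0.24 against the opposite input, and 0.64 to 0.71 without either repeat. The cause of these shifts was not tested beyond the scaling itself. SMARCC2 with hnRNPK reversed to -0.29 without scaling. ARID1A, SMARCC2 and SMARCD1 stayed above 4-fold with hnRNPK in 10 of 11 alternatives and SMARCD1 with FLAG-CBFB in 8 of 9, all but the one without scaling. edgeR called 2 members lower, SMARCA2 added, without a filter, with the opposite input and with both inputs (1 in the main fit). Of all genes tested, 14.0%, 18.1% and 12.2% were called lower in these fits, beside 15.8% in the main fit. No paired analysis was possible because inputs and RIPs have only 1 replicate number in common. The single inputs and the single FLAG-CBFB RIP limit every value.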
